A study of Mus musculus with 6 samples.

Results

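Kruppel-like factors are zinc finger transcription factors, and the 7 described here (Klf2, Klf3, Klf4, Klf6, Klf7, Klf10 and Klf13) were taken by name from the 28773 genes of the deposited expression tables. They were measured by RNA sequencing in CD8+ T cells from the spleens of mice on day 35 of a tumor experiment. Every mouse had a tumor treated by microwave ablation (MWA), a local heating of the tumor through a needle antenna. The comparison was between 3 samples from mice then given 2-deoxy-D-glucose (MWA+2DG, replicates 4 to 6), a glucose analog that blocks glycolysis, and 3 samples from mice given phosphate-buffered saline (MWA+PBS, replicates 1 to 3). In the paper's treatment schedule the injections of 2DG or saline ended before day 35, when the cells were taken. The study worked with female mice, and the strain and tumor line behind these 6 samples, the age of the mice by sample and whether a sample was a single mouse could not be read from the sources used here. If the samples were not separate mice, the p-values measure only the spread between samples, which may be technical. The T cells were taken from spleen suspensions with an isolation kit, and each value is an average over the cells of a preparation.

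Members of this family share a carboxy-terminal DNA-binding domain that recognizes CACCC boxes and GC-rich sites, and differ in the amino-terminal regions that recruit activators or repressors. In T cells the family is known mainly for keeping resting cells quiescent and for directing where they travel. KLF2 sustains the receptors by which naive and memory cells leave tissues and enter lymph nodes, and it is lost when a T cell is activated through its receptor. KLF4, which acts downstream of the ETS factor ELF4, holds back the division of CD8+ T cells, and KLF13 drives the late transcription of the chemokine gene Ccl5. KLF10 belongs to the response to transforming growth factor beta, KLF3 is a repressor that works through the corepressor CtBP, and KLF6 and KLF7 are widely expressed members with known roles in injury responses and in neurons, respectively.

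The promoters of Klf2, Klf4, Klf6 and Klf7 are shown because Klf2 had the highest level of the 7 genes and the other 3 changed most. The sequences are the 250 bases before the annotated start in RefSeq (build GRCm38.p6), written 5′ to 3′ on the strand of the gene, with matches to the searched motifs in capitals.
Klf2 (chr8:72318812-72319061, plus strand): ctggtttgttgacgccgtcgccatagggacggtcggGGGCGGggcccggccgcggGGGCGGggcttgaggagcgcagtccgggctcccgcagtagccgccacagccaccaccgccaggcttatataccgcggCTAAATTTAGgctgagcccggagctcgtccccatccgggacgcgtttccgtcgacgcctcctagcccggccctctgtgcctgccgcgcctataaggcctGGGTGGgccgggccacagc
Klf4 (chr4:55532476-55532725, minus strand): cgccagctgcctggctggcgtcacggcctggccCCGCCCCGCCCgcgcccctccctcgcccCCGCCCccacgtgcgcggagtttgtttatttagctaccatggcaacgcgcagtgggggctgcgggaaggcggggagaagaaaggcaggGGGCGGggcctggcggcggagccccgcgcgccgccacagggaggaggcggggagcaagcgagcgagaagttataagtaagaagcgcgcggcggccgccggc
Klf6 (chr13:5861239-5861488, plus strand): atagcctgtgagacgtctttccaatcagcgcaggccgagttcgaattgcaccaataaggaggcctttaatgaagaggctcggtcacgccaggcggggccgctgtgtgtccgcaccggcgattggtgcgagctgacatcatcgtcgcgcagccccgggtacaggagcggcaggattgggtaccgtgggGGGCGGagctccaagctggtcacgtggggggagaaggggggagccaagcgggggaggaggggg
Klf7 (chr1:64121390-64121639, minus strand): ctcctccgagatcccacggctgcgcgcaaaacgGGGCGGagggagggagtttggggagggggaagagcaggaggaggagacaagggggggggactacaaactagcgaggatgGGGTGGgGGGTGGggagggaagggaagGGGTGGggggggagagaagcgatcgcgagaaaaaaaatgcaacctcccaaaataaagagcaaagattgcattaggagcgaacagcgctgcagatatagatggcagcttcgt
The capitals mark GC boxes (GGGCGG on either strand), CACCC boxes (CCACCC on either strand) and, in Klf2, a match to the MEF2 site. Overlapping matches were counted separately. Klf2 held 2 GC boxes, 1 CACCC box and the MEF2 match CTAAATTTAG. Klf4 held 4 GC boxes and no CACCC box, Klf6 held 1 GC box, and Klf7 held 1 GC box and 3 CACCC boxes. Klf3, which held 6 GC boxes and 3 CACCC boxes, and Klf13, with 3 and 1, are not printed. Klf10 had no entry among the promoter windows and was not searched, so the search covered 6 of the 7 genes. Of all 32851 promoter windows of this length, 32.7% held a GC box, 28.1% a CACCC box and 0.508% a MEF2 site. None of the 6 windows held the searched forms of the CArG box, the cyclic AMP response element (TGACGTCA), the AP-1 site (TGANTCA), the forkhead site (TGTTTAC), the heat shock element core (GAANNTTC) or the NF-kB site (GGGANTTCC). That says only that these letters are not in these windows. The spellings had been narrowed after the promoters were read, so the absences depend on the spelling chosen.

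The values are FPKM (fragments per kilobase of transcript, scaled to the mapped total), which can be compared between genes because they are scaled by transcript length. Between 12198 and 12515 genes reached 1 FPKM per sample, and all 7 genes were among the 12444 tested. The T lineage markers were present at high levels, the 16 genes summing to 1503 to 1570 FPKM in MWA+PBS and 2063 to 2200 FPKM in MWA+2DG (14 of 16 higher). RNA of other cells was also present. The 9 neutrophil markers summed to between 65.7 and 89.96 FPKM without 2DG and between 1559 and 1739 FPKM with it (8 of 9 higher), and the 8 B cell markers to between 10.8 and 12.1 and between 53.2 and 58.4 (8 of 8 higher). The 13 monocyte and macrophage markers summed to between 865 and 936 FPKM without 2DG and between 397 and 441 FPKM with it (10 lower and 2 higher), and the 7 erythroid markers to between 287 and 344 and between 66.5 and 83.96 (7 of 7 lower). Fewer cells of a type and less RNA per cell cannot be told apart in these bulk samples. The part of these cell types in the results for Kruppel-like factors was not tested.

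The 7 genes did not move together. After 2DG, Klf4, Klf6, Klf3 and Klf10 were lower and Klf7 was higher, while Klf2 and Klf13 did not pass the test. Tested by limma on log2(FPKM + 1) with Benjamini-Hochberg adjustment over all tested genes, 4 of 7 were lower (17.1% of all tested genes were), 1 was higher (22.3% were) and 2 were not called at an adjusted p under 0.05. A call in either direction was made for 39.4% of all tested genes. In 5 of 7 the 2 groups of samples did not overlap, as was so for 52.1% of all tested genes. By the rule of the study's methods (an unadjusted P under 0.05 and a log2 change over 0.25 in size), 3 of 7 passed (Klf4, Klf6 and Klf7), against 38.2% of all tested genes. The median log2 fold change of the 7 was -0.19, beside 0.05 over all tested genes.

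**Figure D1:**
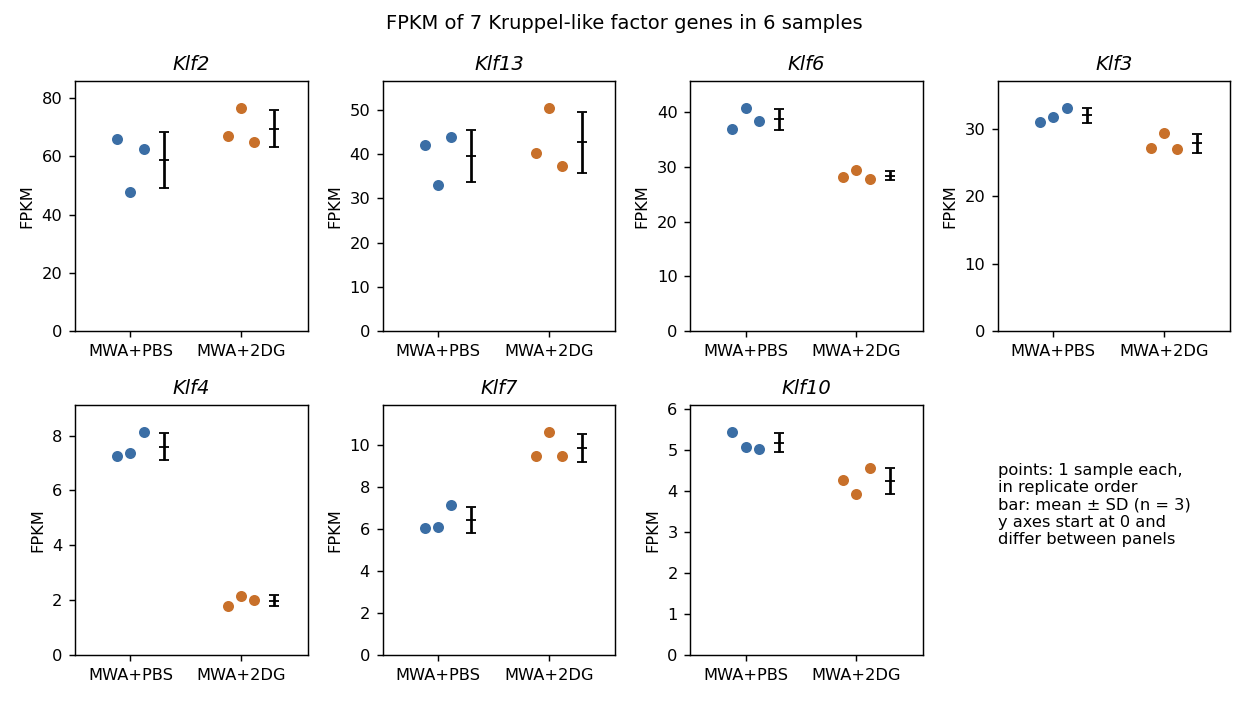
FPKM of the 7 genes in each of 3 MWA+PBS (blue) and 3 MWA+2DG (orange) samples, with the mean ± SD beside the points and a y axis from 0 in every panel. Klf4 fell from 7.60 to 1.98 and Klf7 rose from 6.43 to 9.84 with no overlap, whereas the points of Klf2 and Klf13 overlapped.

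Klf4, the quiescence factor downstream of ELF4 and also a factor of monocyte differentiation, moved furthest. It read 7.27, 7.37 and 8.15 FPKM in the MWA+PBS samples and 1.79, 2.16 and 2.00 FPKM in the MWA+2DG samples. Every MWA+2DG sample was below every MWA+PBS sample, and the spread within each group was small beside the gap. The mean fell from 7.60 ± 0.482 to 1.98 ± 0.186 FPKM (SD, n = 3), which left 26.1% of the MWA+PBS level. The log2 fold change was -1.53 ± 0.08 (SE, 95% interval -1.71 to -1.34, limma adjusted p = 9.13e-06), and only 1.58% of tested genes had a lower one. The median log2 fold change of the 13 monocyte and macrophage markers was -2.53, further from 0 than that of Klf4, and the 10 that were lower stood at 0.137 (C1qb) to 0.219 (Fcgr1) of their MWA+PBS means, whereas Lyz2 and Ly6c2 rose. The summed immediate early and heat shock genes stood at 0.291 of their MWA+PBS mean. The part of either group in the change of Klf4 was not tested.

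Klf6, a widely expressed gene that responds early to injury and stimulation, fell by a smaller amount. Its 3 MWA+PBS samples read 36.8, 40.8 and 38.4 FPKM and its 3 MWA+2DG samples 28.1, 29.4 and 27.8 FPKM. The groups were apart by more than the range within either. The mean fell from 38.7 ± 1.99 to 28.4 ± 0.832 FPKM (SD, n = 3), with a log2 fold change of -0.43 ± 0.06 (SE, 95% interval -0.56 to -0.30, limma adjusted p = 0.000902). With scaling to T lineage markers it was -0.85 (limma adjusted p = 3.06e-05).

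Klf7 was the only one of the 7 that rose. It read 6.05, 6.09 and 7.14 FPKM in MWA+PBS and 9.46, 10.6 and 9.44 FPKM in MWA+2DG, so all samples of the second group lay above all of the first. The mean rose 1.53-fold, from 6.43 ± 0.618 to 9.84 ± 0.676 FPKM (SD, n = 3), and the log2 fold change was 0.55 ± 0.08 (SE, 95% interval 0.36 to 0.74, limma adjusted p = 0.00162). The rise stood on the scale of the whole library. When the samples were scaled to equal T lineage markers, which lowered every log2 fold change by 0.41 and the median of all tested genes to -0.37, the value for Klf7 was 0.13 and was not called (limma adjusted p = 0.251).

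Klf3, the CtBP-dependent repressor, read 31.0, 31.8 and 33.1 FPKM in MWA+PBS and 27.1, 29.5 and 27.0 FPKM in MWA+2DG. The groups did not overlap, and the nearest samples were 1 from each side at 31.0 and 29.5. The mean went from 32.0 ± 1.05 to 27.9 ± 1.39 FPKM (SD, n = 3), or by -0.19 ± 0.06 on the log2 scale (SE; adjusted p = 0.0297 by limma). Klf10, the gene of the transforming growth factor beta response, read 5.44, 5.06 and 5.01 FPKM in MWA+PBS and 4.25, 3.91 and 4.54 FPKM in MWA+2DG, again without overlap. Its mean went from 5.17 ± 0.235 to 4.23 ± 0.315 FPKM (SD, n = 3), or by -0.24 ± 0.07 on the log2 scale (SE; adjusted p = 0.0346 by limma). Both falls were small on the library scale, and with scaling to T lineage markers they were -0.61 for Klf3 (limma adjusted p = 0.000212) and -0.65 for Klf10 (limma adjusted p = 0.000114). Klf3 was not called in 5 of 16 alternative settings (limma adjusted p up to 0.106) and Klf10 in 5 of 15 (up to 0.118), and in each gene 4 of these left out a single library. For Klf3 these were replicates 1 or 3 of MWA+PBS and 4 or 6 of MWA+2DG, with log2 values from -0.22 to -0.17, and for Klf10 replicates 1 or 3 of MWA+PBS and 4 or 5 of MWA+2DG, with values from -0.26 to -0.19.

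Klf2, the factor that keeps S1pr1 on, was the most abundant of the 7. It read 65.95, 47.8 and 62.6 FPKM in MWA+PBS and 66.9, 76.6 and 64.8 FPKM in MWA+2DG. The groups overlapped, because replicate 1 of MWA+PBS lay above replicate 6 of MWA+2DG, and replicate 2 of MWA+PBS lay well below all others. The means were 58.8 ± 9.66 and 69.4 ± 6.27 FPKM (SD, n = 3), and the log2 difference of 0.25 ± 0.12 (SE, 95% interval -0.04 to 0.54, limma adjusted p = 0.155) did not pass. Its size rested on single libraries, at 0.11 without replicate 2 and 0.33 without replicate 1 of MWA+PBS. Its direction depended on the scaling, with a value of -0.17 after scaling to T lineage markers.

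Klf13, the factor of late Ccl5 transcription, read 42.1, 32.96 and 43.8 FPKM in MWA+PBS and 40.3, 50.4 and 37.2 FPKM in MWA+2DG. The groups overlapped, and the spread was wider than for 88.6% of tested genes. The means were 39.6 ± 5.82 and 42.6 ± 6.92 FPKM (SD, n = 3), with a log2 fold change of 0.10 ± 0.14 (SE, 95% interval -0.22 to 0.43, limma adjusted p = 0.59). Its sign turned after scaling to T lineage markers, to -0.31, and without replicate 2 of MWA+PBS or replicate 5 of MWA+2DG, to -0.02 each. The values for Klf2 and Klf13 shared a pattern across samples. Replicate 2 of MWA+PBS was lowest in both, replicate 5 of MWA+2DG was highest in both, and the ratio of Klf2 to Klf13 kept to 1.43 to 1.57 in MWA+PBS and to 1.52 to 1.74 in MWA+2DG.

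The transcripts of Klf2 (61.6% GC, higher than in 98.6% of tested genes) and Klf13 (55.5%) were the richest in GC of the 7, and replicate 2 of MWA+PBS was low in GC-rich genes as a class. In that sample the median deviation of log2(FPKM + 1) from the group mean was 0.10 in genes under 40% GC. It was -0.07 in the 336 genes of 60 to 65%, the class of Klf2, which itself deviated by -0.28. In the class of Klf13, 55 to 60%, the median was -0.04, and Klf13 deviated by -0.25. Klf4, at 54.6% GC, deviated by -0.04. In replicate 5 of MWA+2DG, Klf13 deviated by 0.25 while the median of genes of 55 to 60% was -0.02. With trends on GC and length removed, a setting added after the data had been seen, Klf2 was at 0.29 (limma adjusted p = 0.0646) and Klf13 at 0.19 (limma adjusted p = 0.22), neither of them called. The part of GC content in the spread was not tested.

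**Figure D2:**
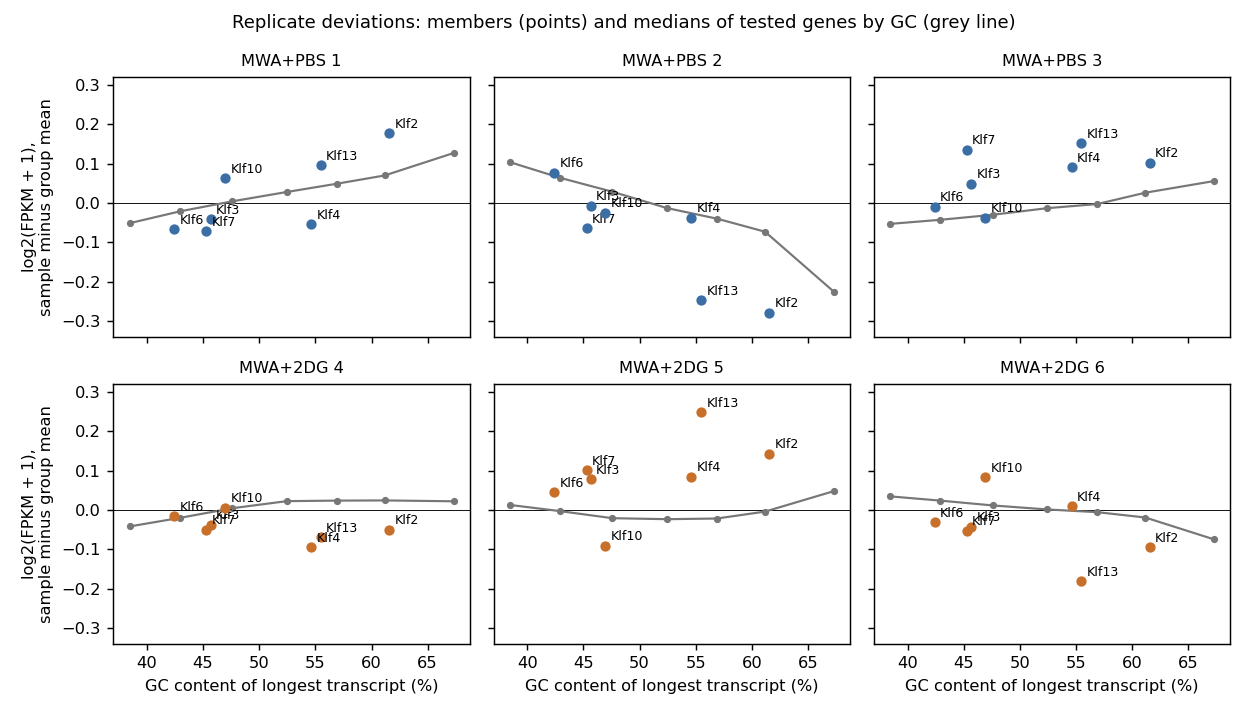
Deviation of log2(FPKM + 1) in each sample from its group mean, against the GC content of the longest transcript, for the 7 genes (points) and as medians of tested genes by GC class (grey line). In replicate 2 of MWA+PBS the line slopes downward and Klf2 and Klf13 lie below it at -0.28 and -0.25.

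Ratios of FPKM within a library do not depend on how the libraries were scaled. Of 21 pairs of the 7 genes, 17 had ratios that did not overlap between the groups, as was so for 53.6% of all pairs of tested genes above 0 in every sample, and the 21 pairs use the same 7 genes again and again. The exceptions were Klf2 with Klf13, Klf3 with Klf10, Klf6 with Klf10, and Klf10 with Klf13. The order of Klf4 and Klf7 turned over, from a ratio of 1.14 to 1.21 in MWA+PBS to 0.189 to 0.212 in MWA+2DG, and Klf4 went from above Klf10 in all 3 samples to below it in all 3. Klf2 over Klf6 went from between 1.17 and 1.79 to between 2.33 and 2.61, and Klf2 over Klf4 from between 6.49 and 9.07 to between 32.4 and 37.4. Klf2 over Klf7 went the other way, from 9.17 ± 1.57 to 7.05 ± 0.172 (SD, n = 3).

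Order by level was largely kept otherwise. In MWA+PBS the means ran Klf2, Klf13, Klf6, Klf3, Klf4, Klf7 and Klf10. Klf13 and Klf6 did not differ beyond their spread there, as Klf6 exceeded Klf13 in 1 of 3 samples. In MWA+2DG they ran Klf2, Klf13, Klf6, Klf3, Klf7, Klf10 and Klf4, and Klf6 and Klf3 were nearly level, Klf3 being above Klf6 in 1 of 3 samples. Of the summed FPKM of the 15 Klf genes in the files, Klf2 took 28.2% ± 2.69 in MWA+PBS and 35.4% ± 0.257 in MWA+2DG, Klf4 3.67% ± 0.273 and 1.01% ± 0.0703, and Klf7 3.11% ± 0.261 and 5.02% ± 0.0904 (SD, n = 3). The sum itself was 207.3 ± 15.9 and 196.3 ± 16.3 FPKM.

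**Figure D3:**
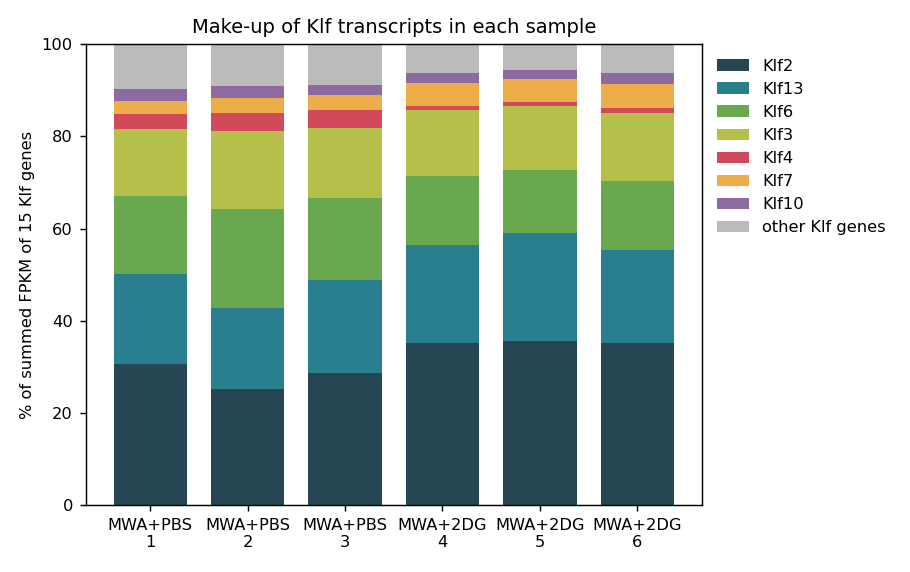
Share of the summed FPKM of 15 Klf genes held by each of the 7 genes and by the others, in percent, in each of the 6 samples. Klf2 fills 28.2% on average in MWA+PBS and 35.4% in MWA+2DG, while Klf4 shrinks from 3.67% to 1.01%.

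The other genes of the Kruppel-like and Sp families give the setting. Of 19 listed, 14 were in the files and 10 passed the filter of a mean of 1 FPKM, of which 2 were higher, 4 lower and 4 not called, with a median log2 fold change of -0.21. The 4 lower genes (Klf1, Klf8, Klf9 and Klf12) had group means under 1 FPKM in MWA+2DG and passed only through MWA+PBS. Neither the count nor the median therefore says that the list leaned downward. Klf1, the master factor of red cell precursors, read 3.57, 2.82 and 4.29 FPKM in MWA+PBS and 0.73, 0.41 and 0.66 in MWA+2DG (log2 fold change -1.50 ± 0.14 SE, limma adjusted p = 0.000185). The erythroid markers fell to 0.230 of their MWA+PBS mean beside it, and their part was not tested. Klf9, a gene induced by hormones, read 1.65, 1.77 and 1.38 FPKM in MWA+PBS and 0.76, 0.74 and 0.82 in MWA+2DG, a log2 value of -0.55 ± 0.10 (limma adjusted p = 0.00432). The general activator Sp4 was at 0.42 ± 0.06 (limma adjusted p = 0.00138) and Sp1, at a level of 24.8 and 28.6 FPKM, at 0.20 ± 0.06 (0.0281), though with scaling to T lineage markers Sp4 was at 0.0076 (limma adjusted p = 0.927) and Sp1 turned to -0.22. Sp3 did not pass, at -0.04 ± 0.06, and with that scaling was called lower at -0.45, where Klf9 was at -0.96. The call of Sp1 was lost with median ratio scaling (limma adjusted p = 0.0909). It was also lost without replicates 1 or 3 of MWA+PBS or 5 or 6 of MWA+2DG (limma adjusted p of 0.0645 to 0.0813).

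**Figure D4:**
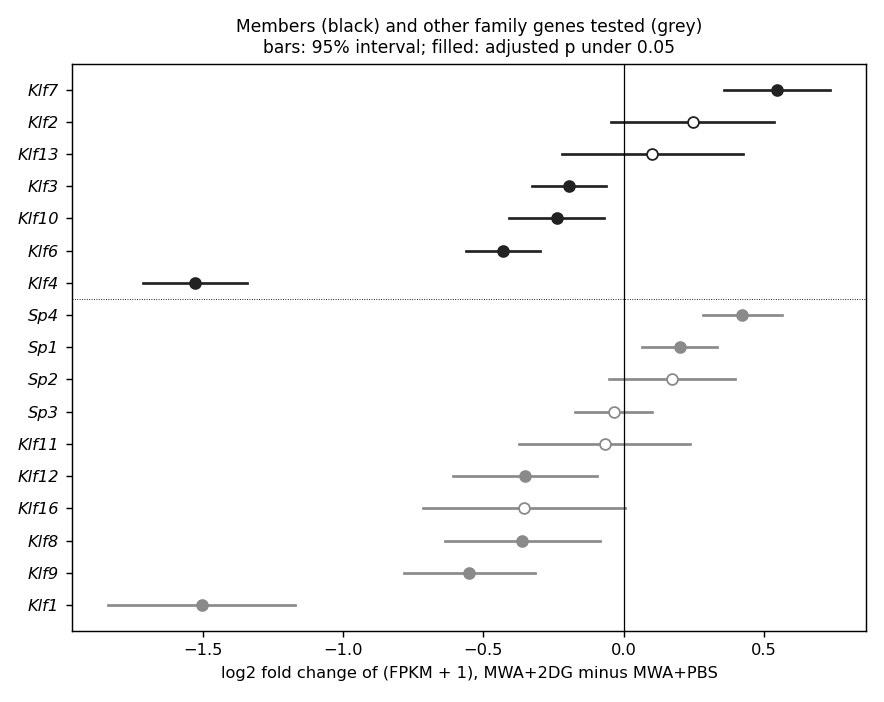
Log2 fold change of FPKM + 1 (MWA+2DG minus MWA+PBS) with its 95% interval for the 7 genes (black) and the 10 other family genes tested (grey), filled where the limma adjusted p was under 0.05. Klf4 at -1.53 and Klf1 at -1.50 stand furthest from 0.

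Of 9 genes that act upstream of the family in T cells, 8 were tested, with 2 higher, 1 lower and 5 not called. Foxo1, the forkhead factor that turns on Klf2, read 21.8, 19.7 and 21.9 FPKM in MWA+PBS and 28.0, 31.3 and 29.7 in MWA+2DG, without overlap (log2 fold change 0.47 ± 0.07 SE, limma adjusted p = 0.00117), but was at 0.06 and not called with scaling to T lineage markers (limma adjusted p = 0.53). Foxo3 fell (-0.43 ± 0.09, limma adjusted p = 0.00762) and Mef2a, of the MEF2 family, rose (0.30 ± 0.05, limma adjusted p = 0.00388), except after scaling to T lineage markers, where Mef2a was -0.11 and Foxo3 -0.85. Elf4, upstream of Klf4, was at 58.8 ± 7.11 and 61.2 ± 2.87 FPKM and did not pass (0.06 ± 0.09), but was called lower with that scaling (-0.35, limma adjusted p = 0.0135). Of 8 cofactors and ubiquitin ligases, 7 were tested, 1 was higher (Fbxw7, a ligase substrate receptor for KLF2, 0.33 ± 0.08, limma adjusted p = 0.015), 1 lower (Ep300, a coactivator, -0.29 ± 0.08, limma adjusted p = 0.0254) and 5 were not called, among them Wwp1, another ligase for KLF2, at -0.10 ± 0.08. Fbxw7 was at -0.08 and Ep300 at -0.71 with scaling to T lineage markers, which also called Wwp1 lower at -0.51. Ep300 lost its call without replicates 1 or 3 of MWA+PBS or 4 or 6 of MWA+2DG (limma adjusted p of 0.0672 to 0.0868), and Fbxw7 without replicate 1 of MWA+PBS or 4 or 6 of MWA+2DG (0.0559 to 0.057).

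Of 4 reported genes that KLF2 is known to keep on, a list chosen with results of these data known and some of whose genes are not reported, 3 were higher and 1 was not called. Being so chosen, the count is not compared with that of all genes. The T lineage markers were higher in 14 of 16, with a median log2 fold change of 0.39, and their part was not tested. S1pr1, the egress receptor, read 74.6, 74.5 and 75.2 FPKM in MWA+PBS and 129.2, 132.2 and 132.0 in MWA+2DG (log2 fold change 0.80 ± 0.05 SE, limma adjusted p = 1.4e-05). Ccr7, the lymph node homing receptor, rose from 87.0 ± 5.18 to 136.3 ± 4.15 FPKM (0.64 ± 0.06, limma adjusted p = 0.000177). With scaling to T lineage markers S1pr1 was at 0.39 and Ccr7 at 0.23. Itgb7 rose on the library scale (0.28, limma adjusted p = 0.00892) but stood at -0.14 with scaling to T lineage markers, and S1pr4 did not pass (0.01, limma adjusted p = 0.88) but was called lower with that scaling (-0.40, limma adjusted p = 0.000352). Of 2 chemokine receptors that rise when KLF2 is absent, Cxcr3 rose (1.53, limma adjusted p = 4.08e-05) and Ccr3 fell (-2.23, limma adjusted p = 3.79e-07). With scaling to T lineage markers Cxcr3 was at 1.115 and Ccr3 at -2.64. Ccr3 stood at 0.177 of its MWA+PBS mean, and the part of other cells in the 2 changes was not tested. Klf2 itself did not pass the test beside these genes.

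Of 9 genes tied to the other members, 1 was higher, 3 lower and 5 not called. Ccl5, the target of KLF13, rose from 52.7 ± 3.37 to 84.3 ± 13.1 FPKM (0.66 ± 0.11 SE, limma adjusted p = 0.00275), was at 0.24 and not called with scaling to T lineage markers (limma adjusted p = 0.0926), and stood beside a Klf13 that did not pass. Cdkn1a, the cell cycle inhibitor that KLF4 induces, fell from 1.73 ± 0.0306 to 0.717 ± 0.163 FPKM (-0.68 ± 0.11, limma adjusted p = 0.00208), though it passed the filter of 1 FPKM only through the group where it was high. Lgals3 fell (-0.78, limma adjusted p = 0.00043), Smad7, which KLF10 represses, was at -0.27 (limma adjusted p = 0.0212) and lost its call without replicates 1 or 3 of MWA+PBS or 4 or 6 of MWA+2DG (0.0545 to 0.0768), and Cdkn1b did not pass at -0.05. With scaling to T lineage markers Lgals3 was at -1.20, Cdkn1a at -1.09, Smad7 at -0.68 and Cdkn1b at -0.47, the last then called lower. Immediate early and heat shock genes, a class of fast-induced genes to which Klf4, Klf6 and Klf10 are often counted, were lower in 15 of 21, higher in 2 and not called in 4, with a median log2 fold change of -0.79. Among all tested genes 17.1% were lower, though this list was chosen with earlier results of these data known. Jun (-3.18) and Fos (-2.63) fell, as did Hspa1a (-5.34) and Hspa1b (-5.64), near-identical copies whose separate values are uncertain. The 2 higher genes were Egr3 (0.43, limma adjusted p = 0.0202) and Btg2 (0.25, limma adjusted p = 0.0176). The summed level of the 21 genes was 1142 to 1231 FPKM in MWA+PBS and 333 to 350 FPKM in MWA+2DG. Their part in the falls of Klf4, Klf6 and Klf10 was not tested.

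**Figure D5:**
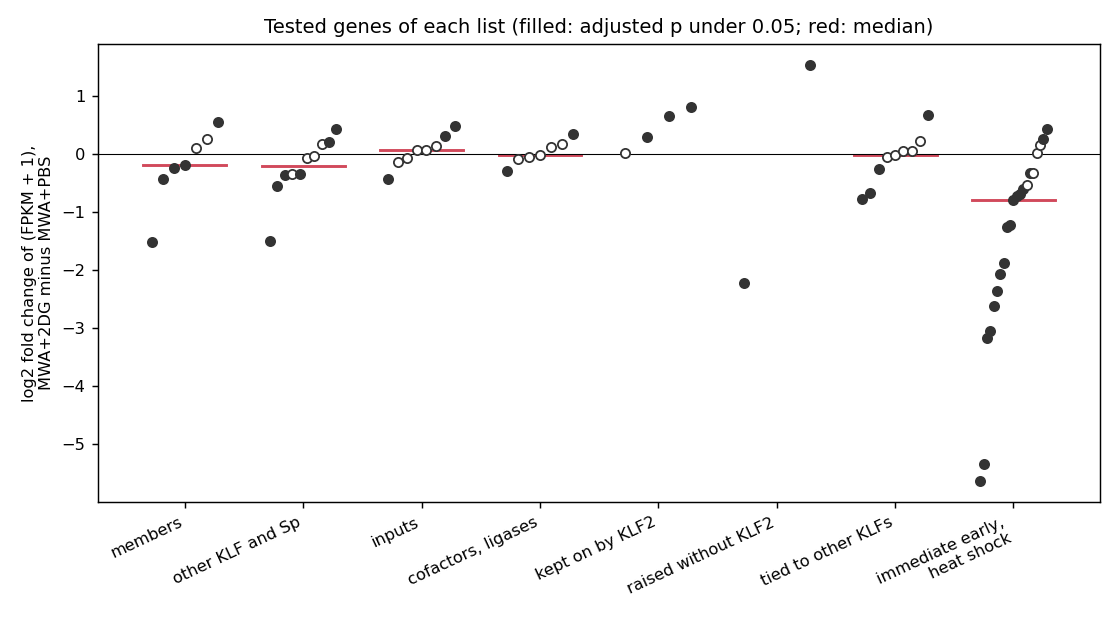
Log2 fold change of FPKM + 1 (MWA+2DG minus MWA+PBS) of the tested genes of each list, filled where the limma adjusted p was under 0.05, with the list median in red except for both KLF2 target lists, some of whose genes are not reported. The median of the 7 genes is -0.19 and that of the 21 immediate early and heat shock genes is -0.79.

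The genes with the most similar profiles over the 6 samples were named by the distance between centred log2 profiles. For Klf2 the nearest was Lbh (distance 0.124), followed by Slc25a27 and Ict1os, and for Klf13 they were Gm43031, Polr2a and Gm10874 (0.0932, 0.0947 and 0.124). For Klf4 the nearest were Scamp5 (0.130), BC035044 and Idh1, and for Klf6 2610020C07Rik (0.0404), Gm18853 and Dtl. Klf7 was nearest to 1700052K11Rik (0.0930), Gm8189 and Gm35315, Klf3 to Gm42547 (0.0364), Noa1 and Mss51, and Klf10 to Kdelc1 (0.0302), Rnf135 and Vps37b. These distances are descriptions over samples that share 2 groups. Genes listed in the annotation as overlapping the members, for those with values in the files, were at most at 2.21 FPKM (C230096K16Rik, on the strand of Klf3), and none was listed for Klf2, Klf4, Klf6 or Klf10.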

How the data were processed

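The deposited values were FPKM per gene, 1 table per sample (3 MWA+PBS and 3 MWA+2DG), made by the authors from poly(A) libraries carrying molecular identifiers. The submitters' processing notes name cutadapt 1.9, HISAT2 2.0.4, UMI-tools, StringTie 1.3.4d and the build mm9, without roles or order. Neither the annotation nor the use of strand in quantification could be read from the sources used here. Low FPKM values held no step that would recover whole reads, so the depth behind each value is unknown and intervals for counting error are left out.

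Genes with a mean of at least 1 FPKM were tested with limma 3.58.1 (R 4.3.3) on log2(FPKM + 1), two-sided, with a variance trend and Benjamini-Hochberg adjustment. Fold changes on this scale understate those of low genes. The procedure was tested on simulated data with normal noise, in which 200 of 12444 genes were changed. It called 57% of log2 changes of 0.5, 94% of log2 changes of 1 and 0.0327% of unchanged genes. Far fewer genes were changed there than were called in the data, so it does not give the error rate of these calls. Symbols came from a table of gene names (84 of 28773 IDs had none), transcript GC and length from the longest GENCODE M21 transcript, and promoters from RefSeq. The members and gene lists were chosen with earlier results of these data known, some genes of the KLF2 target lists are not reported here, and the motif spellings were narrowed after the promoters had been read. The text names all 7 members, the 3 called genes of largest fold change in each other list and up to 2 more whose role is told, and the 3 nearest profiles of each member. A few more are named so that genes that went other ways, or lay near the filter, are not left out. Alternatives were another pseudocount (0.1), no filter or a filter of 5 FPKM, 4 scalings, sample weights, no variance trend, a log2 threshold of 1, each replicate left out and, added after seeing the data, trends on GC and length removed.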

Additional observations from a re-analysis of the deposited data

How the results depend on the processing

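Klf4 stayed called in 15 of 15 alternatives and Klf6 in 16 of 16, while Klf7 stayed called in 15 of 16, Klf3 in 11 of 16, Klf10 in 10 of 15, and Klf2 and Klf13 in none of 16. Over the alternatives the log2 fold change ran from -1.94 to -1.48 for Klf4, from -0.85 to -0.39 for Klf6 and from 0.13 to 0.61 for Klf7. Scaling to T lineage markers gave -0.17 for Klf2, -0.31 for Klf13 and 0.13 for Klf7 (limma adjusted p = 0.251), and it gave -0.22 for Sp1, -0.11 for Mef2a, -0.35 for Elf4, -0.083 for Fbxw7, -0.14 for Itgb7 and -0.40 for S1pr4. Foxo1 (0.06), Sp4 (0.0076) and Ccl5 (0.24) lost their calls under it, and Sp3 (-0.45), Wwp1 (-0.51) and Cdkn1b (-0.47), as well as Elf4 and S1pr4, gained one as lower, while Sp1 went from called higher to called lower (limma adjusted p = 0.0241). It moved every value by the same 0.41, called 8878 genes in place of 4907 and cut the share of higher genes among those called from 56.5% to 5.60%. With sample weights Klf2 was at 0.10 and Klf13 at -0.0088, and S1pr4 at -0.0034, -0.0369 and -0.0206 with quantile normalization, median ratio scaling and sample weights. Klf3 lost its call without a variance trend (-0.19, limma adjusted p = 0.0503) and without a filter Klf10 (-0.24, limma adjusted p = 0.0589) and Ep300 (-0.29, limma adjusted p = 0.0659) lost theirs. Sp1 lost its call with median ratio scaling and without MWA+PBS replicates 1 or 3 or MWA+2DG replicates 5 or 6 (limma adjusted p of 0.0645 to 0.0909), and Sp3 gained one with GC and length trends removed (-0.14).

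With each replicate left out in turn, Klf2 ran from 0.107 to 0.335, Klf3 from -0.23 to -0.17, Klf10 from -0.28 to -0.19, Klf13 from -0.0218 to 0.193, Elf4 from -0.0331 to 0.139 and S1pr4 from -0.0186 to 0.0462. Klf3 lost its call without MWA+PBS replicates 1 or 3 or MWA+2DG replicates 4 or 6, and Klf10 without MWA+PBS replicates 1 or 3 or MWA+2DG replicates 4 or 5. Called members were then 3 to 5, and 3 with a filter of 5 FPKM, which Klf4 and Klf10 do not pass. Calls over all genes moved too, to between 3706 and 5195 with a replicate left out and to 2951 among the fewer genes at 5 FPKM. By the study's thresholds 3 members passed, 1 with a log2 fold change beyond 1 and 5 with GC and length trends removed. The causes were not tested. Depth could not be read from FPKM. No paired analysis was possible because the replicate numbers are not shared between the groups.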
